A study of Mus musculus with 2 samples.

Results

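The surfactant system genes Sftpc, Sftpb, Sftpa1, Sftpd, Abca3, Slc34a2, Lamp3, Napsa, Lyz1 and Etv5 were followed through the cells of the fetal lung. They were taken by symbol from the gene rows of the count matrix, and all 10 were found among its 32285 genes. Pulmonary surfactant is a film of lipid and protein that lowers surface tension in the alveolus, so that the alveoli do not collapse at the first breath. Alveolar type 2 cells make it, store it in lamellar bodies and secrete it, whereas the flat alveolar type 1 cells carry gas exchange. Glucocorticoids given before birth are known to hasten lung maturation, and surfactant is a usual readout of that.

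The cells came from fetal lungs of wild-type mice at gestation day 18. From gestation day 12 the mothers, 9 weeks old, drank water with 1.3 µg/ml dexamethasone (DEX, a synthetic glucocorticoid) or with phosphate-buffered saline (PBS). There were 2 mothers per group, and the fetuses of each litter were pooled, 8 and 9 for the DEX litters DEX-1 and DEX-2 and 5 and 8 for PBS-1 and PBS-2. Paired values are given in this order of litters throughout. Each litter received its own hashtag, an antibody with a barcode read along with the RNA, and cells with CD45 and ST2 on the surface but no lineage marker were sorted for a 10x Genomics 5′ single-cell library that held all litters.

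The sort was set for group 2 innate lymphoid cells (ILC2s), and the labels name that cell type, but surfactant-producing cells were present. Among the singlets (barcodes with 1 litter's hashtag), 114 formed an alveolar type 2-like class and 74 an alveolar type 1-like class. All 10 fixed type 2 markers, none of them a surfactant system gene, were found in at least 25% of the type 2-like cells, with a mean share of 91.8%. All 11 type 1 markers passed in the type 1-like cells, with a mean share of 93.0%. Ptprc, which encodes CD45, had a unique molecular identifier (UMI, a tag that counts captured RNA molecules) in 0 of 114 type 2-like and 0 of 74 type 1-like cells, which allows shares of cells with a Ptprc UMI of up to 2.63% and 4.05% and sets no limit on cells that express it. Other epithelial-like singlets were given no name, among them 123 cells that carried both marker sets. A separate cluster of 327 singlets was also left unnamed, with a mean share of 87.5% for epithelial and 84.5% for endothelial markers. It enters none of the classes below and is not part of the sums over all epithelial-like cells.

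The hashtags stained these cells weakly. Of 424 barcodes in the type 2-like class, 304 (71.7%) had no litter call, and of 310 in the type 1-like class 233 (75.2%) had none, against 0.602% of ILC2-like barcodes. The median own-tag count was 158.5 in type 2-like singlets, lowest in DEX-1 at 61.5 and highest in DEX-2 at 232, and 1078 in ILC2-like singlets. The type 2-like cells numbered 24 and 41 in the DEX litters and 35 and 14 in the PBS litters, and the type 1-like cells 11, 30, 25 and 8. Under a rule on the ratio of the top tags the type 2-like numbers became 26, 93, 47 and 141. Differences between litters in these classes therefore rest on few and incompletely labelled cells. Over all singlets the litters held between 18665955 and 23660294 UMIs.

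In type 2-like cells the surfactant system genes together took 19.8% and 21.7% of all UMIs in the DEX litters and 22.4% and 21.7% in the PBS litters. In type 1-like cells the share was 0.236% and 1.86% in the DEX litters and 1.10% and 4.71% in the PBS litters. In ILC2-like cells it was at most 0.0332%. The type 2-like shares of the litters lay close together, while those of the type 1-like cells were spread widely. UMIs were counted at the 5′ end and are not scaled by transcript length, so the levels below compare 1 gene across cells, not genes with each other.

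Sftpc (ENSMUSG00000022097, chromosome 14, 70520949 to 70524081, minus strand, GRCm38) encodes surfactant protein C, the small hydrophobic protein that marks type 2 cells. Its level in type 2-like cells was 187600 ± 8910 CPM (counts scaled to the usual common total of UMIs; mean ± SD, n = 4 litters). Per cell this was 2576 and 3442 UMIs in the DEX litters and 2857 and 4236 in the PBS litters. The 304 type 2-like barcodes without a litter call, which enter none of these means, held 195500 CPM. The 123 unnamed cells with both marker sets held 3591 Sftpc UMIs per cell, and 119000 CPM. The unnamed cluster of 327 singlets held 2587 Sftpc UMIs per cell, and 70380 CPM. Its Sftpc UMIs numbered 846066 in all, against 362245 in the type 2-like cells.

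Sftpb (ENSMUSG00000056370, chromosome 6, 72304610 to 72314371, plus strand) encodes surfactant protein B, which is needed for lamellar bodies to form. It measured 5147 ± 656 CPM in type 2-like cells, with 66.0 and 104.5 UMIs per cell in the DEX litters and 83.7 and 103.1 in the PBS litters. The collectins, soluble lectins of the airspace that bind microbes, are encoded by Sftpa1 (ENSMUSG00000021789, chromosome 14, 41131782 to 41136452, plus strand) and Sftpd (ENSMUSG00000021795, chromosome 14, 41172214 to 41185149, minus strand). Sftpa1 was at 8368 ± 474 CPM and Sftpd at 1254 ± 184 CPM. Both were found in nearly all type 2-like cells, with at least 1 UMI in 99.1% for Sftpa1 and 95.6% for Sftpd.

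The lipid and ion handling genes were detected in the same cells. Abca3 (ENSMUSG00000024130, chromosome 17, 24351950 to 24410201, plus strand), the transporter that loads phospholipid into lamellar bodies, was at 386 ± 28.8 CPM. Slc34a2 (ENSMUSG00000029188, chromosome 5, 53038081 to 53071664, plus strand), a sodium-phosphate cotransporter that takes up the phosphate of recycled surfactant, was at 2275 ± 149 CPM. Lamp3 (ENSMUSG00000041247, chromosome 16, 19653378 to 19706375, minus strand), a membrane protein of lamellar bodies, was at 532 ± 63.5 CPM. Napsa (ENSMUSG00000002204, chromosome 7, 44572380 to 44586862, plus strand), an aspartic protease that helps to cut surfactant protein B from its precursor, was at 2533 ± 182 CPM. Etv5 (ENSMUSG00000013089, chromosome 16, 22381309 to 22439719, minus strand), an ETS transcription factor that acts downstream of FGF signals in distal lung epithelium, was at 229 ± 45.8 CPM.

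Lyz1 (ENSMUSG00000069515, chromosome 10, 117287797 to 117292868, minus strand), a lysozyme secreted with surfactant, differed most between litters. It measured 3291 and 7662 CPM in the DEX litters and 6783 and 4862 in the PBS litters. Its neighbour and near copy Lyz2 starts 10466 bases away, and the transcripts of both were identical at 96.0% of 1262 aligned bases. Reads could be assigned to the wrong one of the pair, and how far this affects the Lyz1 values was not tested. The 37 type 2-like cells without a Lyz1 UMI had a mean of 70.1 Lyz2 UMIs.

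The regions before the start sites are shown for Sftpb and Sftpa1, whose levels followed Sftpc most closely over cell classes, and for Lyz1, which varied most between cells. The sequences are the 250 bases upstream of the RefSeq start on GRCm38.p6, read 5′ to 3′ along the gene, at chr6:72304360-72304609 (plus strand), chr14:41131538-41131787 (plus strand) and chr10:117292869-117293118 (minus strand). Capitals mark 2 motifs searched on both strands, CAAGTG (reversed CACTTG) and CTCAAG (reversed CTTGAG), short cores of sites for the NKX2 family, whose member Nkx2-1 is the lung epithelial transcription factor.
Sftpb promoter: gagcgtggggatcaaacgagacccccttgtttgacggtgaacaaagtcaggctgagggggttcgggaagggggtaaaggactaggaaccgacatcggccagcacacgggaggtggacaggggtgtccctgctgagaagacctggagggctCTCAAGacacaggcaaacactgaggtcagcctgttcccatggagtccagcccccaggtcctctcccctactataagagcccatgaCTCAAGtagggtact
Sftpa1 promoter: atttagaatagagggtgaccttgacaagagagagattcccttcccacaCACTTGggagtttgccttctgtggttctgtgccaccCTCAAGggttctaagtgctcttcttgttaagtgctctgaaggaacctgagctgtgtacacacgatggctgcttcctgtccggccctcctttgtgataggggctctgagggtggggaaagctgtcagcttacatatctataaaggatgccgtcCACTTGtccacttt
Lyz1 promoter: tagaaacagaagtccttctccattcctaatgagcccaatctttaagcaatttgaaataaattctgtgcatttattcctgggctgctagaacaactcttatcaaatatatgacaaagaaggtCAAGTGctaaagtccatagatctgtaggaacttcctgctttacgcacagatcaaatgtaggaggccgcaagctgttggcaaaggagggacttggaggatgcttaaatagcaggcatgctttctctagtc
CTCAAG began 100 and 15 bases before the start of Sftpb and 166 bases before that of Sftpa1. CAAGTG lay on the opposite strand 202 and 14 bases before the Sftpa1 start and on the gene's strand 129 bases before the Lyz1 start. Of 7 members with a RefSeq promoter (Sftpb, Sftpa1, Abca3, Slc34a2, Lamp3, Lyz1 and Etv5), 2 held the first of these motifs and 2 the second. Over 32851 promoters searched in the 250 bases before the start, 11.6% held the first and 13.3% the second. AGAACA, a core of the glucocorticoid receptor's binding site, occurred before Lamp3 and Lyz1 and in 16.1% of all promoters. These matches describe letters only.

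**Figure D1:**
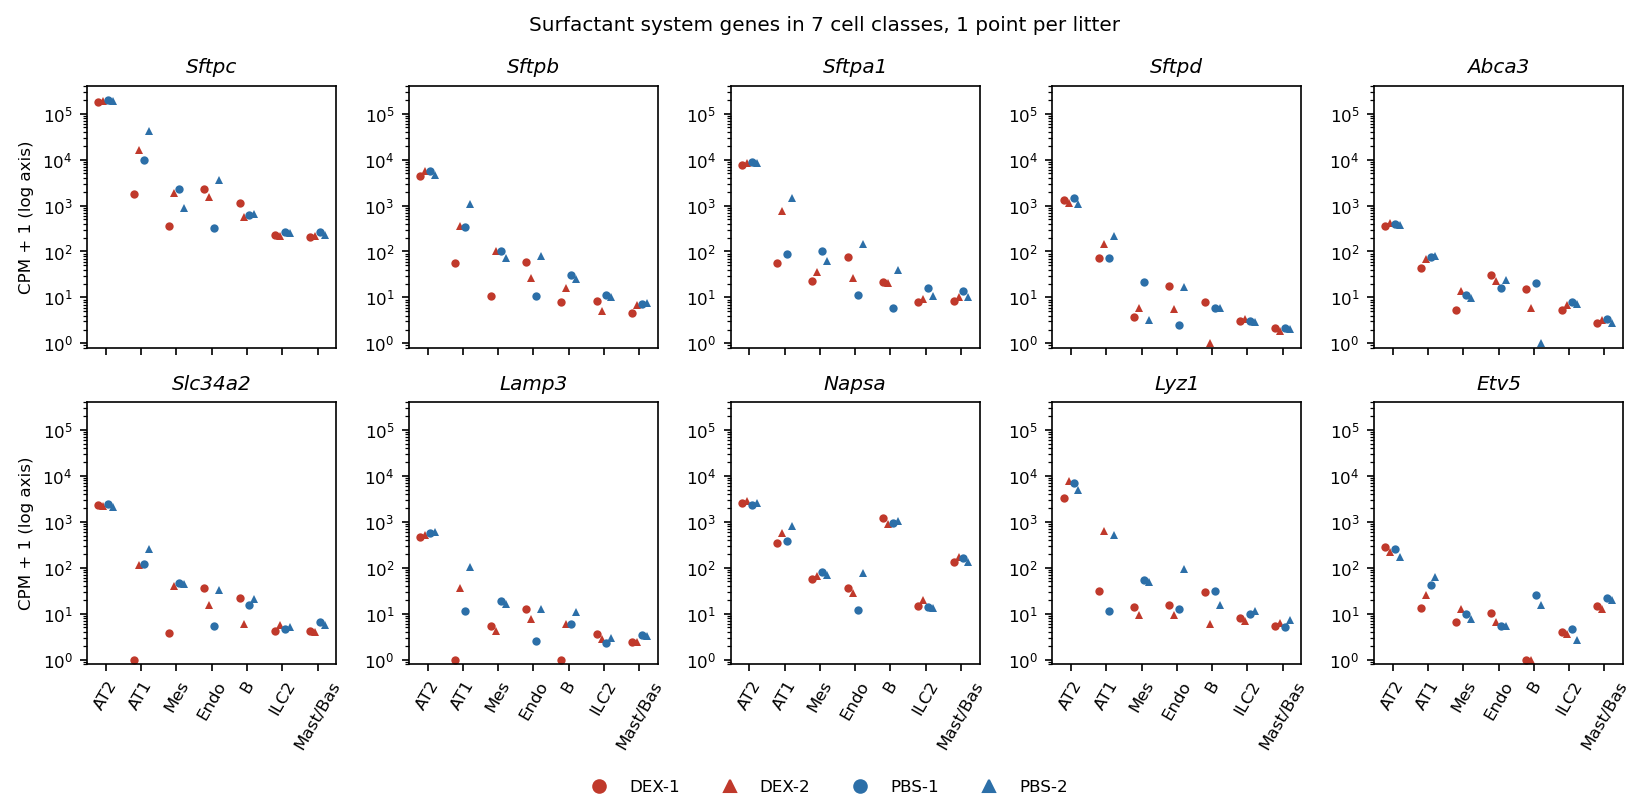
Level of each surfactant system gene in 7 cell classes, as CPM + 1 on a log axis, with 1 point for each of the 4 litters (red DEX, blue PBS; points at 1 have no UMI). AT2 and AT1 are the alveolar type 2-like and type 1-like cells, Mes mesenchymal-like, Endo endothelial-like, B the B-like cells and Mast/Bas the mast or basophil-like cells. The type 2-like points lie highest for every gene, and Napsa stands at 884 to 1205 CPM in B-like cells.

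Among the 114 type 2-like cells most members varied moderately, and Lyz1 did not. Sftpc per 10000 UMIs of a cell had a median of 1875 and a coefficient of variation (CV) of 22.0%. The CV was 33.3% for Sftpb, 37.1% for Napsa, 39.6% for Slc34a2 and 46.3% for Sftpa1, and it was higher for genes with few UMIs, reaching 74.0% for Etv5 with a median of 2.12. For Lyz1 it was 173%, with a range from 0 to 577 and a median of 5.91 per 10000 UMIs. At a common depth of 2000 UMIs per cell (112 cells) the variance of Lyz1 was 40.3 times its mean, against 12.6 times for Sftpc and 1.05 to 4.59 times for the other members.

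The Lyz1 molecules sat in a minority of cells. Of the type 2-like cells 37 had no Lyz1 UMI, 42 had 1 to 100, and 35 had over 100. The latter held 92.2% of all Lyz1 UMIs, at a median of 249 per cell and up to 1036. Such cells occurred in every litter, as 5 of 24 and 13 of 41 in the DEX litters and 12 of 35 and 5 of 14 in the PBS litters. Lyz2 had a median of 7 UMIs in the cells without Lyz1, 14 in those with 1 to 100 and 13 in those with more, and its means in these cells had no common order over the litters. Across the 114 cells the level of Sftpc had a Pearson correlation of 0.76 with Sftpb, 0.70 with Sftpa1, 0.62 with Napsa and 0.57 with Slc34a2. It was lower for Lamp3 (0.32), Sftpd (0.28), Abca3 (0.23), Etv5 (0.19) and Lyz1 (0.16). These are shares of the same cell's total, and 1 cell with no Sftpc UMI is among them.

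**Figure D2:**
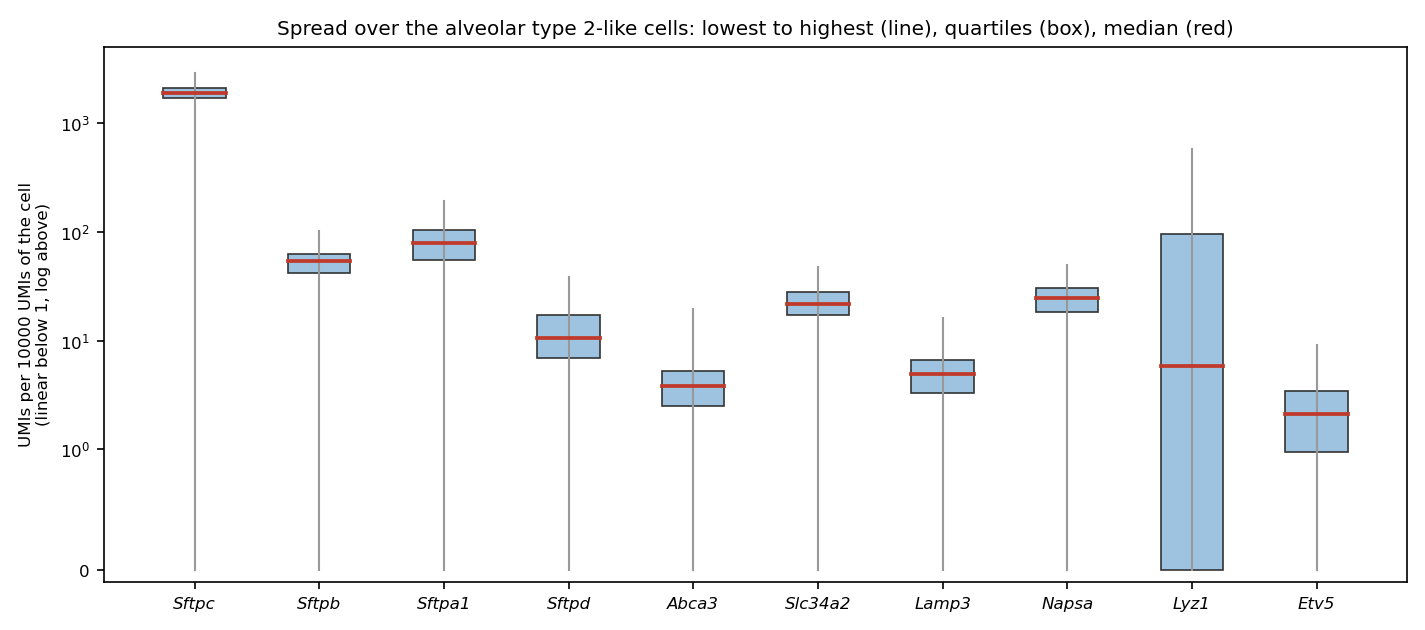
Spread of each surfactant system gene over the 114 alveolar type 2-like cells, as UMIs per 10000 UMIs of the cell (linear below 1, log above). Lines run from the lowest to the highest cell, boxes span the quartiles and red bars are medians. Lyz1 spans 0 to 577 with a lower quartile of 0, while the Sftpc quartiles are 1686 and 2095.

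In type 1-like cells the surfactant transcripts were lower and uneven. Sftpc was at 26.2 and 199.5 UMIs per cell in the DEX litters and 114 and 871 in the PBS litters. The median cell had 7 Sftpc UMIs, 6 of the 74 cells had over 1000, and the 5 highest cells held 70.0% of the Sftpc UMIs. None of those 6 cells was in DEX-1, and each other litter had 2. In the 233 type 1-like barcodes without a litter call the median was 4 and 1 exceeded 1000. The type 1-like level of Sftpc thus rested on few cells.

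Most other members had a median of 0 or 1 UMIs per type 1-like cell in at least 3 litters. Napsa was an exception, with a median of 5 and 3 UMIs in the DEX litters and 4 and 5 in the PBS litters. It was present in 81.1% of type 1-like cells and measured 525 ± 208 CPM. In relation to Sftpc, Napsa was more abundant in type 1-like than in type 2-like cells of each litter, 14.1-fold and 2.36-fold in the DEX litters and 3.30-fold and 1.44-fold in the PBS litters, and 2.33-fold over all cells, where few cells set the Sftpc sum. Such a rise was not limited to Napsa. In DEX-1 Abca3 had 7 UMIs beside 288 of Sftpc in type 1-like cells, against 127 beside 61826 in type 2-like cells. In PBS-2 Abca3 did not rise, at 13 beside 6965 against 114 beside 59309. Slc34a2 and Lamp3 had no UMI in the 11 DEX-1 cells, where 3 counts correspond to 18.2 CPM.

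Type 2-like and type 1-like cells were compared within litters to set the size of these differences. Both classes were formed without the members but from other genes of the same cells, so this is a description and not an independent test. Of 4135 genes, 17.5% were called higher in type 2-like cells (edgeR adjusted p under 0.05), and all 10 members were among them. Their median log2 difference was 4.23, against 0.01 over all genes. Lyz1 differed most, at 5.17 ± 0.63 (log2 difference ± SE, n = 4 litters), followed by Sftpa1 at 4.90 ± 0.60, Slc34a2 at 4.63 ± 0.42, Sftpc at 4.39 ± 0.52, Lamp3 at 4.29 ± 0.36 and Sftpb at 4.17 ± 0.42. Sftpd (3.63 ± 0.27), Etv5 (3.05 ± 0.28), Abca3 (2.83 ± 0.17) and Napsa (2.62 ± 0.18) differed less. The ranges of 1 standard error overlapped between neighbours in this order, except between Sftpd and Etv5.

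Genes that serve the same system differed in both directions, where 17.5% of all genes were called higher and 19.2% lower in type 2-like cells. Of 15 tested lipid synthesis genes, 10 were higher in type 2-like cells and 2 lower. The desaturase Scd1 (970 against 55.4 CPM after scaling, log2 difference 4.39 ± 0.43), the acyltransferase Gpam (3.5 ± 0.34), the fatty acid synthase Fasn (3.24 ± 0.22) and the ligase Acsl4 (3.16 ± 0.34) differed most. Prdx6, a peroxiredoxin with phospholipase activity that takes part in surfactant turnover, was lower, at 339 against 1539 CPM. Of 10 genes of protein processing and lamellar bodies 5 were higher and 1 was lower, led by the secretion GTPase Rab27a (3.75 ± 0.43) and the kinase Lrrk2 (2.39 ± 0.29).

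Of 12 lung epithelial transcription factors 5 were higher in type 2-like cells, among them Cebpa (3.05 ± 0.29) and Tfcp2l1 (2.37 ± 0.41), and 3 were lower, including Klf5 (-1.15 ± 0.18) and Nr3c1 (-0.83 ± 0.23), which encodes the glucocorticoid receptor. Sox9 (3.28 ± 0.35) and the FGF receptor gene Fgfr2 (2.09 ± 0.17) were among 3 of 6 FGF and distal tip genes that were higher, and Shh was lower. Of 13 glucocorticoid targets 9 were lower in type 2-like cells, the sodium channel genes Scnn1b (-5.38 ± 0.46), Scnn1g (-4.63 ± 0.30) and Scnn1a (-2.74 ± 0.22) the most. The metallothionein genes Mt2 (3.62 ± 0.29) and Mt1 (1.86 ± 0.16) were the 2 that were higher.

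Over 28 sums of 7 classes and 4 litters, the log2 CPM of Sftpb had a Pearson correlation of 0.98 with that of Sftpc, Sftpa1 one of 0.98 and Sftpd one of 0.97. Outside the members the 5 most similar of 5792 genes were Cxcl15 (0.98), Ppp1r14c, Dram1, Lyz2 and Lpcat1 (0.95 to 0.96). Cxcl15, Ppp1r14c and Lpcat1 also served as class markers. The sums share their libraries and all classes but 2 lie far below the epithelium, so these values describe the likeness only.

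Outside the alveolar epithelium Sftpc was higher in the other non-immune classes and B-like cells than in ILC2-like and mast or basophil-like cells. Endothelial-like cells ranged from 324 to 3643 CPM over litters and mesenchymal-like cells from 350.3 to 2279, with a median of 2 UMIs per cell in both and single cells with over 1000. Immune RNA was present in these classes as well, with a Ptprc UMI in 16.6% of endothelial-like and 33.8% of mesenchymal-like cells. B-like cells ranged from 555 to 1142 CPM, ILC2-like cells from 219 to 268 and mast or basophil-like cells from 206 to 261. The last pair could not be told apart by these ranges.

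Immune cells are not known to transcribe Sftpc, so its level there serves as the measure of free RNA captured with each cell. Sftpc was at 1.96 UMIs per ILC2-like cell and 1.83 in the DEX litters and 2.15 and 2.28 in the PBS litters. Mast or basophil-like cells held 1.69, 1.98, 2.12 and 1.82 per cell in the same order. B-like cells held 4.69 in DEX-1, with 81 UMIs in 1 cell, and 1.98, 2.40 and 2.46 in the others. A like number of molecules per cell was thus found in ILC2-like and mast or basophil-like cells, and in 3 litters of B-like cells, whose median depth was 3528 UMIs against 7173 and 7191.

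At 2000 UMIs per cell Sftpc was found in 37.9% of ILC2-like, 34.5% of mast or basophil-like and 55.7% of B-like cells, and in all 112 type 2-like cells deep enough. Without thinning the shares were 77.2%, 71.6%, 76.9% and 99.1%. For Sftpb the thinned shares were 1.76%, 1.11% and 4.32% of the immune classes. They are read as background.

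A single source of free RNA keeps its genes in 1 ratio in every class, and the ratio to Sftpc was set against that in type 2-like cells. Per 1000 Sftpc UMIs, Sftpb stood at 28.3 in type 2-like, 32.3 in ILC2-like, 24.9 in mast or basophil-like and 27.9 in B-like cells. Sftpa1 stood at 44.9, 40.7, 43.4 and 29.8, and Sftpd at 6.62, 8.66, 4.57 and 5.59. For these 3 genes the exact 95% intervals of every immune class, which cover counting error only, overlapped that of the type 2-like cells. In B-like cells they rested on 15 Sftpb, 16 Sftpa1 and 3 Sftpd UMIs beside 537 of Sftpc. Those intervals are wide, so the overlap in B-like cells decides little. Lyz1 overlapped in ILC2-like cells (33.7 against 32.8) and B-like cells (26.1) and was lower in mast or basophil-like cells (22.3), while the type 2-like litters themselves ranged from 18.8 to 40.8.

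Napsa left this ratio by far. It stood at 13.6 per 1000 Sftpc UMIs in type 2-like cells, but at 1421 in B-like cells, 104-fold higher, at 666 in mast or basophil-like cells, 48.8-fold higher, and at 58.0 in ILC2-like cells, 4.26-fold higher. B-like cells held 4.94 and 3.16 Napsa UMIs per cell in the DEX litters and 3.68 and 3.98 in the PBS litters. Mast or basophil-like cells held 1.09, 1.55, 1.32 and 1.06. In each litter the ratio of both classes lay above that of type 2-like cells, by 73.7-fold to 129-fold for B-like cells. At 2000 UMIs, 82.2% of B-like cells had a Napsa UMI, against 2.59% of ILC2-like cells. Unnamed clusters led by Lyz2 and S100a8, or by Prtn3 and Mpo, were 54.4-fold and 44.8-fold above the type 2-like ratio.

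Etv5 stood at 1.23 per 1000 Sftpc UMIs in type 2-like cells and at 71.4 in mast or basophil-like cells, 58.2-fold higher. It lay above the type 2-like ratio in ILC2-like and B-like cells too, with 47 and 8 Etv5 UMIs in all beside 4272 and 537 of Sftpc. The mast or basophil-like level was 13.8 and 11.8 CPM in the DEX litters and 20.9 and 19.2 in the PBS litters, and 2.90% of these cells had a UMI at 2000 UMIs. Abca3 was 11.4-fold above the type 2-like ratio in ILC2-like cells, with 102 UMIs over 2070 cells, 4.35-fold in mast or basophil-like and 6.21-fold in B-like cells, the latter with 7 UMIs in all. Lamp3 was 2.83-fold and 2.90-fold above it in ILC2-like and mast or basophil-like cells, and Slc34a2 1.45-fold in the latter. In all, 4 members lay above the ratio in ILC2-like, 5 in mast or basophil-like and 3 in B-like cells. The same ratio in 29 unnamed airway-like cells, led by Scgb1a1 and Foxj1, was 5.23-fold higher for Sftpd and 1.798-fold higher for Sftpb.

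**Figure D3:**
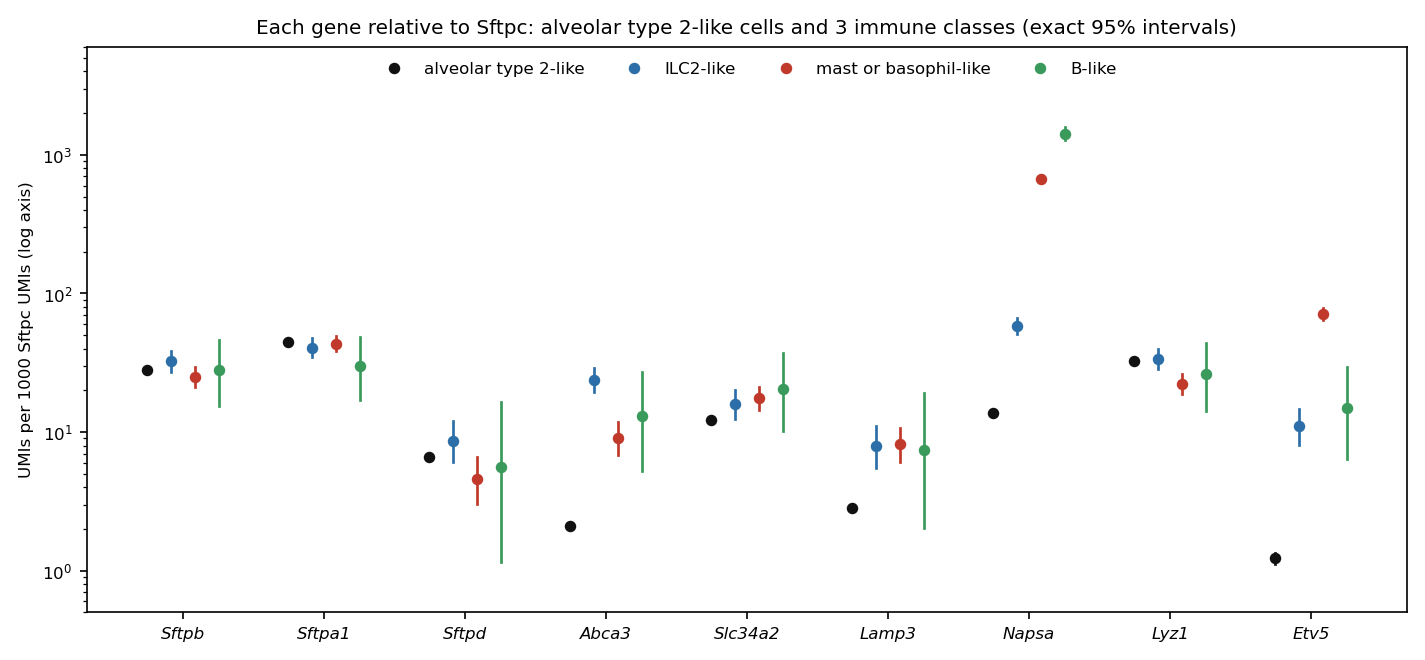
UMIs of each member per 1000 Sftpc UMIs (log axis) in alveolar type 2-like cells and 3 immune classes, summed over litters. Bars are exact 95% intervals from counts. Sftpb, Sftpa1 and Sftpd overlap the type 2-like value in all 3 immune classes, whereas Napsa reaches 666 in mast or basophil-like and 1421 in B-like cells against 13.6.

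The comparison of DEX with PBS litters asks whether the surfactant system differed after the mother received a glucocorticoid. In type 2-like cells no member was called, where 0.127% of 4741 genes were (6 genes, edgeR adjusted p under 0.05; 0.0211% higher in DEX and 0.105% higher in PBS) and 261 genes had an unadjusted p under 0.05. No member was among these 261. After TMM scaling Sftpc was at 181500 and 201500 CPM in the DEX litters and 209700 and 207100 in the PBS litters. Both DEX litters lay below both PBS litters, and the log2 fold change was -0.12 (95% interval -0.36 to 0.11, adjusted p = 0.983). Under the other hashtag rules the groups overlapped, at 185500 and 190800 CPM (before TMM scaling) against 187600 and 201400 by MULTIseqDemux and at 174000 and 187900 against 185100 and 198300 by the tag ratio rule. Over all epithelial-like cells the log2 fold change of Sftpc turned to 0.16.

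The other members gave values on both sides of 0. Sftpb was at 4654 and 6118 CPM in the DEX litters and at 6144 and 5039 in the PBS litters, with a log2 fold change of -0.05 (-0.35 to 0.24). Sftpa1 (-0.10, interval -0.36 to 0.17), Sftpd (-0.09, -0.41 to 0.23), Abca3 (0.03, -0.32 to 0.38), Slc34a2 (-0.03, -0.31 to 0.25), Napsa (0.09, -0.19 to 0.38) and Etv5 (0.15, -0.27 to 0.57) overlapped between the groups. Lamp3 was at 470 and 554 CPM in the DEX litters and at 595.5 and 650 in the PBS litters. These did not overlap, but the log2 fold change of -0.27 (-0.59 to 0.06) did not pass, with an adjusted p of 0.934. Of the 10 members 2 had both DEX litters below both PBS litters, where 16.5% of all genes did, and none had both above. Lamp3 too overlapped under the other hashtag rules, at 463 and 584 CPM against 627 and 548.5 by MULTIseqDemux, and at 421 and 633.5 against 620 and 551 by the tag ratio rule. Over all epithelial-like cells its log2 fold change turned to 0.24.

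Lyz1 was at 3415 and 8217 CPM in the DEX litters and 7289 and 5235 in the PBS litters, so the DEX litters enclosed the PBS litters. The log2 fold change was -0.10 (-0.56 to 0.36). It became -0.88 without DEX-2 and 0.40 without DEX-1. Its near copy Lyz2, chosen after its values were seen, was at 3118 and 2925 CPM in the DEX litters and at 7899 and 5584 in the PBS litters. This was a log2 fold change of -1.16 ± 0.15 (adjusted p = 0.000145), 1 of the 6 called genes. The call was lost without DEX-1 (-1.20, adjusted p = 0.986), under another hashtag caller (-0.79, 0.393), under the tag ratio rule (-0.91, 0.117) and over all epithelial-like cells (-0.39, 0.862).

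The other called genes, also seen before they were chosen, were Col6a2 (-1.04), Cbr2 (-1.23), Spink5 (-1.10), Scgb1a1 (-2.61) and Krt18 (1.02). Scgb1a1, the secretoglobin of airway club cells, was at 5.87 and 15.7 CPM in the DEX litters and at 96.5 and 48.9 in the PBS litters. The summed level of 7 airway markers in these cells was 56.6 and 51.9 CPM in the DEX litters and 150.3 and 116.8 in the PBS litters, with Foxj1 and Ccdc153 at 0 in every litter but PBS-2. This sum holds Scgb1a1 itself, and without it the other 6 markers summed to 50.9 and 37.3 CPM in the DEX litters and 60.5 and 71.4 in the PBS litters. The part of airway RNA in the values of the called genes was not tested.

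**Figure D4:**
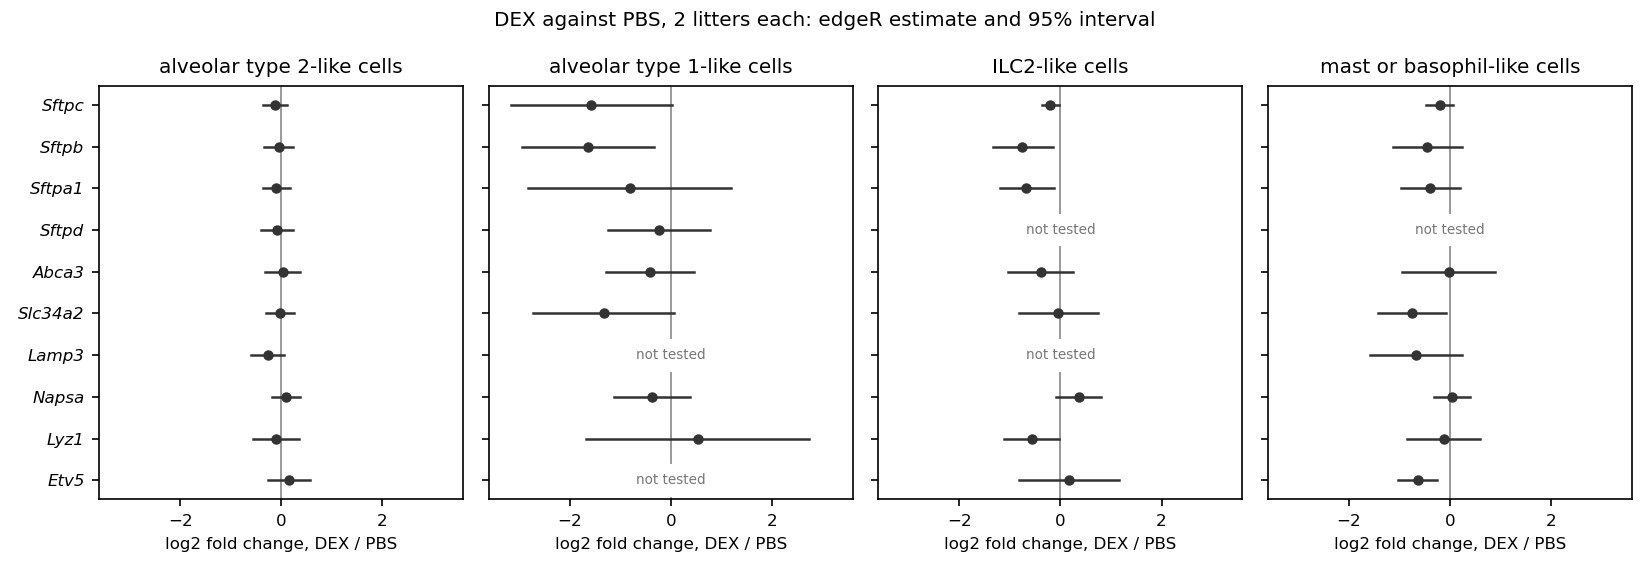
Log2 fold change of each surfactant system gene, DEX over PBS, with its 95% interval from edgeR, in 4 cell classes (n = 2 litters per group). Genes marked as not tested were removed by the filter on low counts. In type 2-like cells all intervals include 0 and lie within -0.59 and 0.57, while in type 1-like cells that of Sftpc runs from -3.16 to 0.03.

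Of the lists beside the members none had a called gene in type 2-like cells. The 12 tested glucocorticoid targets had a median log2 fold change of 0.30, against 0.00 over all genes, with 9 values above 0. Errfi1, an inhibitor of EGF receptor signals (0.78 ± 0.17, adjusted p = 0.0636), Mt1 (0.75 ± 0.17, 0.0917), Cdkn1c (0.83 ± 0.25, 0.419) and the cell cycle inhibitor gene Cdkn1a (1.04 ± 0.28, 0.263), named after their values were seen, had an unadjusted p under 0.05 and missed the threshold. The 15 lipid synthesis genes had a median of 0.00, with Srebf1, the sterol-responsive regulator of lipid synthesis and also seen before it was chosen, at 0.65 ± 0.28 (adjusted p = 0.835) and Scd1 at -0.33 ± 0.15 (0.857). Among 13 transcription factors Nkx2-1, singled out after its value was seen, was at 390 ± 26.0 CPM in DEX and 511 ± 6.72 in PBS litters (-0.40 ± 0.16, 0.826).

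In type 1-like cells edgeR called none of 3356 genes (0%), with 117 at an unadjusted p under 0.05, and DESeq2 and limma-voom also called none. Of the members 8 were tested, and Lamp3 and Etv5 were too low. Sftpc was at 1932 and 18430 CPM in the DEX litters and 10930 and 49660 in the PBS litters, so the groups overlapped widely. Its log2 fold change was -1.57 (-3.16 to 0.03, adjusted p = 0.999). Sftpb had -1.64 (-2.94 to -0.33), Slc34a2 -1.33 (-2.72 to 0.06) and Lyz1 0.53 (-1.67 to 2.74), all at the same adjusted p. Of the 8 tested, Abca3 and Slc34a2 had both DEX litters below both PBS litters, against 15.3% of all genes.

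These type 1-like values moved with single litters. Sftpc reached -3.96 without DEX-2, and Sftpa1 went from -3.82 without DEX-2 to 2.40 without PBS-2. PBS-2, with 8 cells, also held the highest summed level of the type 2 markers (2887 CPM, against 841 to 1874 in the other litters). The same held for the airway markers (2667 against 430 to 558), and without Scgb1a1 for the other 6 (1168 against 418 to 551). The part of type 2 and airway RNA in the surfactant levels was not tested.

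In immune cells the comparison was read as one of free RNA for the members that kept the type 2-like ratio in sums over litters. Napsa, Etv5, Abca3 and others lay above that ratio. The ratio covers free RNA of type 2-like cells only, and the source of the rest was not tested. In ILC2-like cells 2.92% of 10629 genes were called, 1.46% higher in DEX and 1.46% higher in PBS, and no member was, of 8 tested. Sftpc was at 229 and 223 CPM in the DEX litters and at 266 and 252 in the PBS litters, a log2 fold change of -0.20 (-0.36 to -0.03, adjusted p = 0.267). The highest single cell held 41 and 31 Sftpc UMIs in the DEX litters and 85 and 117 in the PBS litters. The part of such cells in this difference was not tested. Sftpb had -0.75 (-1.34 to -0.15, 0.242), Sftpa1 -0.67 (-1.20 to -0.13, 0.245) and Lyz1 -0.56 (-1.11 to -0.02, 0.363). Napsa was the only tested member with both DEX litters above both PBS litters, at 13.6 and 18.9 against 12.9 and 12.1 CPM (0.36, -0.08 to 0.81, 0.529).

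Of the 8 members tested in ILC2-like cells 5 had both DEX litters below both PBS litters, against 21.2% of all genes. Summed over litters, Sftpb, Sftpa1 and Lyz1 kept the type 2-like ratio to Sftpc in these cells, so these genes are not counted as separate observations. The sums do not show that the ratio held within each group, and the log2 fold changes of these genes lay further below 0 than that of Sftpc. Sftpb had 34 and 15 UMIs in the DEX litters and 40 and 49 in the PBS litters. Sftpc had 1078 and 827 in the DEX litters and 1052 and 1315 in the PBS litters. Sftpc was called under the tag ratio rule (-0.33, adjusted p = 0.0238, where 2.84% of genes were called), Sftpb without DEX-1 (-1.26, 0.0457) and Sftpa1 without PBS-2 (-0.95, 0.0416). Of the lists, Spry1, a feedback inhibitor of FGF signals, fell by 1.02 on the log2 scale. Among 12 tested glucocorticoid targets Errfi1 (0.76 ± 0.12), Sgk1 (0.51 ± 0.12) and Zbtb16 (0.48 ± 0.11) rose, and Fkbp5 (-0.50 ± 0.12) fell.

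In mast or basophil-like cells edgeR called none of 11490 genes (0%), with 443 at an unadjusted p under 0.05, while DESeq2 called 10 and limma-voom none. Sftpc was at 208 and 213 CPM in the DEX litters and at 260 and 224 in the PBS litters (-0.20, interval -0.47 to 0.07). The highest single cell held 23 and 86 Sftpc UMIs in the DEX litters and 135 and 76 in the PBS litters. Etv5, which these cells held above the type 2-like ratio, was at 13.98 and 11.8 against 20.8 and 19.2 CPM. Its log2 fold change of -0.64 ± 0.17 did not pass (adjusted p = 0.999). Napsa was at 135 and 166.5 in the DEX litters and at 162 and 130 in the PBS litters, with a log2 fold change of 0.05 (-0.31 to 0.40). Of 9 members tested 5 had both DEX litters below both PBS litters, against 16% of all genes. Summed over litters, Sftpb and Sftpa1 kept the type 2-like ratio to Sftpc in these cells as well, so these genes are not counted as separate observations. Whether the ratio held within each group was not tested. Lamp3 rested on 9 to 15 UMIs per litter.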

How the data were processed

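Raw UMI counts per gene and barcode were deposited by the authors, who made them with the multi pipeline of Cell Ranger 7 (7.0.0 in the file header; build mm10 in the submitters' processing notes). Of 10648 barcodes, 13 with under 200 genes and 231 with over 5% mitochondrial UMIs were left out, which left 10409. Litters were called with HTODemux (Seurat 5.3.0, quantile 0.99), and doublets and barcodes without a call were dropped. Doublets within a litter were not removed. Cells were clustered without the members (scanpy 1.11.5, 2000 variable genes, 20 components, Leiden resolution 0.5), epithelial cells again at 0.3, and classes were named from marker lists. Cell classes were rebuilt here and can differ from those of the study for that reason. The members, gene lists and tests were chosen with earlier results of these data known. All members were described, and from each list the called genes, at most the 4 with the largest change, with the 5 genes most like Sftpc. Counts were summed per class and litter and tested with edgeR 4.0.16 (R 4.3.3; quasi-likelihood F-test, TMM, filterByExpr, two-sided, Benjamini-Hochberg over all genes), with the litter as block between classes. DESeq2 1.42.0, limma-voom (3.58.1), other hashtag rules, thinning to 2000 UMIs and leaving out litters were alternatives. The litter was the replicate (2 per group), where an exact permutation test could not go below p = 0.333. Data were simulated for type 2-like cells with a fixed spread between litters, not taken from these data, and 200 genes of higher count were changed. Of genes changed 2-fold 31% were recovered, and of those changed 4-fold 87%, while 13 unchanged genes were called wrongly. With so many genes changed, this number does not tell how many of the 6 genes called in the data were called wrongly. The litter numbers did not pair the samples. Positions are from GENCODE on GRCm38 and promoters from RefSeq.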

Additional observations from a re-analysis of the deposited data

Results flagged for a closer look

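In 5 of 70 sets of 4 litters, 1 litter stood apart from the rest of its set, with a gap to the nearest litter, as a share of the range, above Dixon's 95% critical value, and chance alone gives about 1 in 20 such sets. Sftpc in B-like cells was at 1142 CPM in DEX-1, against 555 CPM in the lowest litter, and 1 cell of DEX-1 held 81 UMIs. Lyz1 in endothelial-like cells was at 93.8 CPM in PBS-2, against 8.27 in the lowest. Sftpd was at 21.0 CPM in mesenchymal-like cells of PBS-1, against 2.18 in the lowest, and at 0.816 CPM in mast or basophil-like cells of DEX-2, against 1.14 in the highest. Slc34a2 in mesenchymal-like cells was at 2.85 CPM in DEX-1, against 45.4 in the highest litter.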

How the results depend on the processing

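Few labelled alveolar cells limit the litter comparisons: 3 counts correspond to 3.99 to 9.73 CPM in type 2-like sums. In type 2-like cells 24 of 150 member values under the alternatives took the other sign, and in type 1-like cells 21 of 115. In ILC2-like cells 4 of 99 did, and in mast or basophil-like cells 7 of 112. Except in mast or basophil-like cells, members also passed the threshold under some alternatives, in type 2-like cells only Lyz1 (-0.88 without DEX-2). The alternatives include fits with 1 litter in a group. No share of all genes was set beside these passes, so they are not read as a result about the members. The litter numbers correlated at 0.03, 0.04, 0.15 and 0.00 in these classes, and nothing was crossed. With the replicate block 13, 17, 560 and 0 genes were called, and Slc34a2 in ILC2-like cells moved to 0.00. Between the alveolar classes 1539 genes were called with no replicate block. The cause of the changes listed here was not tested.

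The 6 calls in type 2-like cells became 1 by DESeq2, limma-voom, the tag ratio rule, thinning and over all epithelial-like cells, 0 by MULTIseqDemux, 14 at Leiden resolution 1, 17 with no filter and 0 to 32 with a litter left out. The 0 calls in type 1-like cells became 56 with no filter, 5 by MULTIseqDemux, 1 by thinning and over all epithelial-like cells, and 10 to 99 with a litter left out. The 310 calls in ILC2-like cells became 112 by DESeq2, 497 with no filter and 122 by thinning. The 0 calls in mast or basophil-like cells became 10 by DESeq2, 76 with no filter and 0 to 8 with a litter left out. Between the alveolar classes 1517 calls became 2901 by MULTIseqDemux, 2777 by the tag ratio rule and 303 by thinning. Thinned Sftpc was at 294 CPM in ILC2-like and 278 CPM in mast or basophil-like cells.

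Over all epithelial-like cells the log2 fold changes were 0.16 for Sftpc, 0.19 for Sftpb, 0.28 for Sftpa1, 0.04 for Sftpd, 0.25 for Abca3, 0.30 for Slc34a2, 0.24 for Lamp3, 0.38 for Napsa and 0.48 for Lyz1, so most signs turned. In type 2-like cells Abca3 was at -0.10 by both other hashtag rules, Napsa at -0.02 by MULTIseqDemux and -0.05 by the ratio rule, and thinning gave Sftpd 0.01 and Slc34a2 0.04. In type 1-like cells Sftpa1 was at 0.39 by MULTIseqDemux and 0.50 by the ratio rule, Abca3 at 0.28 by MULTIseqDemux, Sftpd at 0.03 by limma-voom and 0.16 by the ratio rule, Lyz1 at -0.40 at resolution 1 and Sftpb at 0.31 by thinning. In mast or basophil-like cells Abca3 was at 0.13 by MULTIseqDemux and 0.03 at a mitochondrial limit of 10%.

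With a litter left out, its group keeps 1 litter, assumed to vary like the other group. The type 2-like values then ranged from -0.27 to 0.14 for Sftpb, -0.20 to 0.01 for Sftpa1, -0.28 to 0.15 for Sftpd, -0.14 to 0.16 for Abca3, -0.13 to 0.10 for Slc34a2, -0.01 to 0.19 for Napsa, -0.88 to 0.40 for Lyz1 and -0.07 to 0.51 for Etv5. The type 1-like values ranged from -3.82 to 2.40 for Sftpa1, -0.98 to 0.74 for Sftpd, -0.83 to 0.30 for Napsa and -3.03 to 5.11 for Lyz1. In ILC2-like cells Slc34a2 ranged from -0.30 to 0.23 and Etv5 from -0.32 to 0.71, and in mast or basophil-like cells Abca3 from -0.23 to 0.25, Napsa from -0.11 to 0.22 and Lyz1 from -0.40 to 0.27. Of 403 values between the alveolar classes, 402 kept their side of the threshold.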
